A study of Mus musculus with 12 samples.

Results

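The 33 genes described here mark 3 lineages of the bone marrow other than natural killer (NK) cells: 14 mark neutrophils, 11 mark erythroid cells and 8 mark basophils and mast cells. They were picked by name for those lineages, and all 33 were found by Ensembl gene ID among the 37991 genes of the table. The libraries were made from NK cells, innate lymphocytes that kill infected or transformed cells, sorted from the marrow of C57Bl/6 mice by surface NK1.1 and CD49b. The question followed here is how much RNA of the other lineages each sorted population held, library by library. In bulk RNA, fewer cells of a type and less RNA per cell cannot be told apart.

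The 12 libraries form 4 groups of 3. The controls (Ctrl) carried floxed alleles without Cre, either Id2F/F or Id2F/F Tcf7F/F, and the labels do not say which library had which. The other groups carried Ncr1Cre, a Cre recombinase expressed under Ncr1, the gene of the NK cell receptor NKp46, together with Id2F/F (Id2KO), Tcf7F/F (Tcf1KO) or Id2F/F Tcf7F/F (DKO). Every comparison with Ctrl therefore also differs by the presence of Cre. Id2 encodes an inhibitor of E protein transcription factors, and Tcf7 encodes the transcription factor TCF-1. Cells were sorted straight into lysis buffer. The samples are called independent, but nothing says that each came from a separate mouse, and the age of the mice is not given, so the p-values measure only the spread between these samples.

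Levels are given as FPKM, fragments per kilobase of gene and per unit of library depth, and the underlying reads, recovered from the steps between values, summed to 13975523 to 20208160 per library. Id2 checked its labels: its FPKM was 152 ± 25.0 (SD, n = 3) in Ctrl, 18 ± 1.04 for Id2KO, 114 ± 11.6 for Tcf1KO and 42.3 ± 6.08 for DKO. Tcf7 did not check its labels, with 40.9 ± 4.81 for Ctrl, 84.8 ± 6.33 for Id2KO, 35.0 ± 4.65 in the libraries labelled Tcf1KO and 62.4 ± 9.94 in those labelled DKO. These are totals over the whole gene and hold no measure of the deleted part, so directions for Tcf1KO and for the Tcf7 part of DKO rest on the labels. The sorted cell type was checked on 12 NK identity genes, whose summed FPKM lay between 1607 (Id2KO replicate 3) and 2860 (DKO replicate 2), a 1.78-fold range. The most abundant of them were Gzma, a cytotoxic granule protease, and Nkg7, a cytotoxic granule membrane protein. The 12 include Klrb1c and Itga2, the genes of the surface antigens used in the sort, so the check was in part fixed by the sort.

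Neutrophils make their granule proteins in an order. Primary granule proteases and myeloperoxidase are transcribed in early precursors, secondary granule proteins later, and the calcium-binding proteins S100a8 and S100a9 stay abundant in mature cells. Erythroid precursors turn on heme synthesis, membrane proteins and globins under the transcription factor Klf1 and the erythropoietin receptor, and globin RNA becomes their dominant message. Basophils and mast cells carry the high-affinity IgE receptor, store proteases and histamine, and depend on the transcription factor Gata2. Basophils also carry CD49b, the integrin used in this sort.

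Neighbouring globin genes are near-identical, which bears on their values. The coding sequences of Hba-a1 and Hba-a2 are 426 bases long and differ at 1 base (C381T, counted from 1 at the start codon, with Hba-a1 first), and those of Hbb-bs and Hbb-bt are 441 bases long and differ at 1 base (C417T, with Hbb-bs first). The stretches that hold these differences are shown from GENCODE M21, with the differing base in capitals. They cover coding bases 351 to 410 of the alpha globins and 387 to 441 of the beta globins.
Hba-a1: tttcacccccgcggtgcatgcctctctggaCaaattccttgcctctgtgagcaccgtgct
Hba-a2: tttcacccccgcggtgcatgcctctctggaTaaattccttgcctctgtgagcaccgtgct
Hbb-bs: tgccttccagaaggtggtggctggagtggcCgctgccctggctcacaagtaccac
Hbb-bt: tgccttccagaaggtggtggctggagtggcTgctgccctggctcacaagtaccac
Reads ran for 76 cycles, and of the distinct 76-base windows of each gene's annotated transcripts 67.8% of those of Hba-a1, 84.4% of Hba-a2, 51.4% of Hbb-bs and 56.5% of Hbb-bt also occur in transcripts of another gene, in each case mostly its neighbour. The share was 5.8% for Lyz2, 5.78% for Car1, at most 2.81% for Csf3r, Cd200r3 and Ms4a2, and 0 for each of the other 24 members. The split of reads within a globin pair is therefore uncertain, and the globins are best read as 1 alpha and 1 beta signal. The erythroid medians, counts and correlations below nevertheless count each globin gene singly.

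Members of a lineage were also set side by side by the letters before their transcription starts, because they moved together. RefSeq promoters on GRCm38.p6 were found for 29 members, and the 250 bases before each start were searched on both strands for AGATAA and TGATAA, the cores bound by GATA factors such as Gata2, for CCACACCC, the core bound by Klf1, for GAGGAAGT, an ETS core of the kind bound by PU.1, and for TTGCNNAA, a core of C/EBP factors such as Cebpe. AGATAA occurred in 5 of the 8 basophil and mast cell members, in 3 of 8 erythroid and in 2 of 13 neutrophil members, and in 9.99% of 32851 promoters of all genes. TGATAA occurred in 4 of 8 erythroid, 1 of 8 basophil and mast cell and 0 of 13 neutrophil members (7.94% of all promoters). Among the erythroid members with TGATAA, Hba-a1 and Hba-a2 have near-identical bases before their starts and are not separate observations. GAGGAAGT occurred in 5 of 13 neutrophil members and in none of the other 2 lineages (2.44%). TTGCNNAA occurred in 5 of 13 neutrophil, 2 of 8 basophil and mast cell and 1 of 8 erythroid members (9.56%), and CCACACCC in Hbb-bs and Camp alone (3.2%). AGATAA and TGATAA share their last 5 letters and were counted apart. For each lineage a few 60-base stretches clear of every annotated exon of their gene are shown, 5′ to 3′ on the gene's strand, with 1 match in capitals. The match appears as its reverse complement where it lies on the opposite strand.
Elane: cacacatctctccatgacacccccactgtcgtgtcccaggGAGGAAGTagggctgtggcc
Prtn3: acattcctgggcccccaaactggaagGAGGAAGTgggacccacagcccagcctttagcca
S100a8: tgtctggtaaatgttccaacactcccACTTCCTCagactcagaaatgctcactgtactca
Alas2: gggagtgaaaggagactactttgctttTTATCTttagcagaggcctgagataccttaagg
Klf1: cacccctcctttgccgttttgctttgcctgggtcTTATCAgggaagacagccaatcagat
Epor: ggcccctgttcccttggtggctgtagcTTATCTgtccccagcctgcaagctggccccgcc
Hba-a2: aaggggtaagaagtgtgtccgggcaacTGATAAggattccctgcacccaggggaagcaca
Cpa3: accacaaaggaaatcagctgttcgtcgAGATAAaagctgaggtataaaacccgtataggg
Fcer1a: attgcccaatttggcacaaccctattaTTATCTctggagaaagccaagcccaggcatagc
Prss34: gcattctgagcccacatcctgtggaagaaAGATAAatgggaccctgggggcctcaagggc
Ms4a2: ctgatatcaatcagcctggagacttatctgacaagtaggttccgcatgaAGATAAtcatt
Cd200r3: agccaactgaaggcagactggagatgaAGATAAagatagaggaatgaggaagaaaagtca
In GRCm38.p6 the neutrophil stretches lie at chr10:79886187-79886246 on the plus strand (Elane), chr10:79879546-79879605 plus (Prtn3) and chr3:90668873-90668932 plus (S100a8). Those of the erythroid members lie at chrX:150547304-150547363 plus (Alas2), chr8:84901868-84901927 plus (Klf1), chr9:21963598-21963657 minus (Epor) and chr11:32296279-32296338 plus (Hba-a2). The basophil and mast cell stretches lie at chr3:20242195-20242254 minus (Cpa3), chr1:173227289-173227348 minus (Fcer1a), chr17:25298334-25298393 plus (Prss34), chr19:11623720-11623779 minus (Ms4a2) and chr16:44943612-44943671 plus (Cd200r3). These matches describe the letters of the promoters and are not evidence of binding.

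The 33 genes together took between 0.0384% and 1.11% of a library's reads. The share was 0.476%, 1.11% and 0.243% for Ctrl replicates 1 to 3, 0.0384%, 0.0686% and 0.411% for Id2KO, 0.962%, 0.806% and 0.325% for Tcf1KO and 0.601%, 0.237% and 0.131% for DKO. The exact 95% binomial interval of the lowest share ran from 0.0373% to 0.0394% and that of the highest from 1.11% to 1.12%, and both cover counting error only. Every group thus held libraries that differed from one another far beyond counting error. Id2KO replicates 1 and 2 had the lowest shares, and Id2KO replicate 3 lay among the Ctrl libraries.

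**Figure D1:**
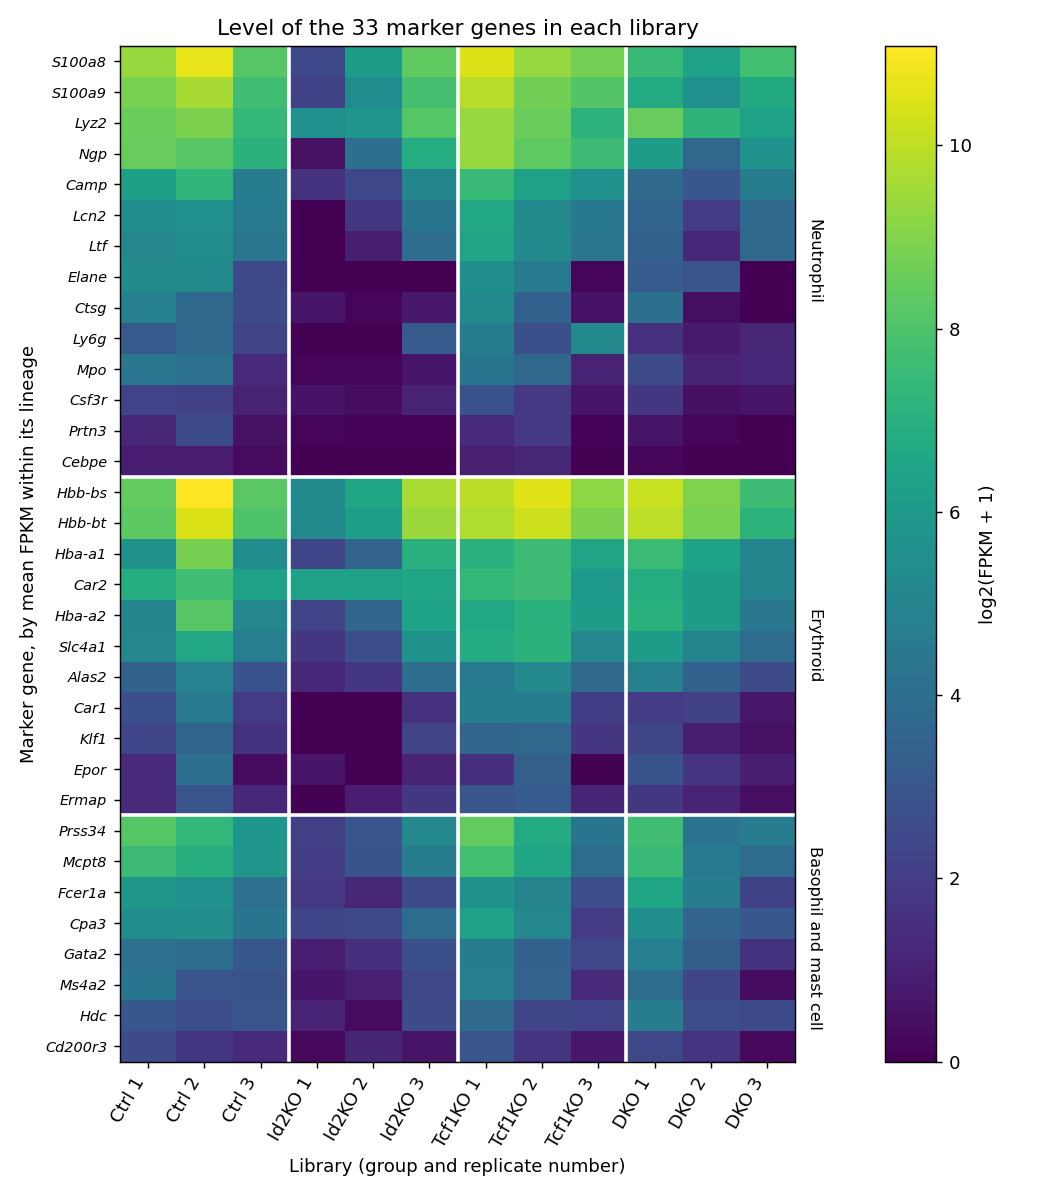
Level of each of the 33 marker genes (rows, by lineage and mean FPKM) in each of the 12 libraries (columns), coloured by log2(FPKM + 1). Id2KO replicates 1 and 2 are dark in nearly every row, and Tcf1KO replicate 1 and Ctrl replicate 2 are bright.

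Id2KO replicate 1 was the lowest library for 24 of the 33 genes and Id2KO replicate 2 for 8, with ties at 0 counted for both. Tcf1KO replicate 1 was the highest for 14, Ctrl replicate 2 for 8 and Tcf1KO replicate 2 for 6. In Id2KO, 5 members were listed at 0 in replicate 1, 5 in replicate 2 and 2 in replicate 3. Among the other libraries, 4 members were at 0 in DKO replicate 3 and 1 in DKO replicate 2. Summed within a lineage, the FPKM spanned 58.2 to 4220.2 for the neutrophil members (72.5-fold), 168 to 4739 for the erythroid members (28.2-fold) and 15.6 to 752 for the basophil and mast cell members (48.3-fold). In Id2KO replicate 1, Lyz2 at 46.3 made up most of the neutrophil sum, and Car2 at 80.6 was the largest part of the erythroid sum. The low ends of these 2 ranges therefore depend on single genes. Id2KO replicates 1 and 2 were the lowest and next lowest libraries for all 3 sums. The order of the other libraries differed by lineage: Ctrl replicate 1 ranked 3 for neutrophil, 8 for erythroid and 2 for basophil and mast cell genes. By replicate number, the basophil and mast cell sum fell from 1 to 3 in each of Ctrl, Tcf1KO and DKO. Replicate 3 was also the lowest of those groups for the erythroid sum, whereas in Id2KO replicate 3 was the highest for all 3 sums. Whether libraries of the same number shared their handling is not given and was not tested.

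**Figure D2:**
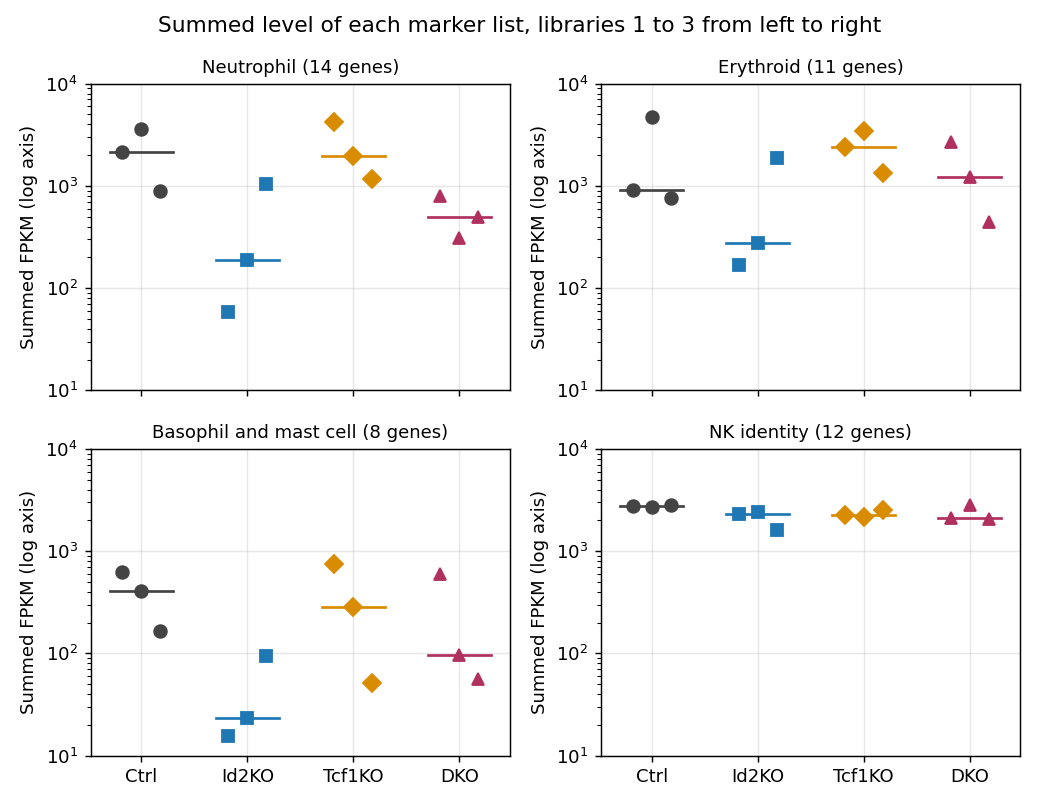
Summed FPKM (log axis) of the 14 neutrophil, 11 erythroid and 8 basophil and mast cell members and of 12 NK identity genes, 1 point per library and a line at each group's median. The 3 marker sums spread over 28.2-fold to 72.5-fold across libraries, against 1.78-fold for the NK identity genes.

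Among neutrophil genes, S100a8 (chr3:90668978-90670035, GRCm38), which forms calprotectin with S100a9, was the most abundant. Its FPKM was 667, 1680.4 and 295 for Ctrl, 4.48, 69.4 and 331 for Id2KO, 1455, 636 and 434 for Tcf1KO and 181, 80.5 and 210.0 for DKO. All 3 DKO libraries lay below all 3 Ctrl and all 3 Tcf1KO libraries, while Id2KO replicate 3 fell inside the Ctrl range. S100a9 was at 456, 787 and 207 for Ctrl, 3.61, 39.2 and 224 for Id2KO, 956, 405 and 278 for Tcf1KO and 109.6, 46.5 and 107 for DKO. It showed the same overlaps, and its FPKM was 46.9% to 80.6% of that of S100a8 in every library.

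Ngp, the neutrophilic granule protein of secondary granules, was at 363, 298 and 139.6 for Ctrl, 0.404, 15.4 and 116 for Id2KO, 656, 321 and 195 for Tcf1KO and 67.1, 12.2 and 49.2 for DKO. Here every Id2KO and every DKO library lay below every Ctrl library. The other secondary granule genes were the iron-binding lactoferrin gene Ltf, the siderophore-binding lipocalin gene Lcn2 and the cathelicidin gene Camp, with highest values of 89.1, 96.3 and 179, all in Tcf1KO replicate 1. In Id2KO replicate 1, Ltf and Lcn2 rested on 1 read each and Camp on 35 reads. Their 3 DKO values lay below the Ctrl values without overlap in each case, for Camp by the margin between 24.0 and 24.7.

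Primary granule genes followed another order of libraries. Elane, encoding neutrophil elastase (chr10:79886247-79888215), was at 37.6, 37.9 and 4.40 for Ctrl, 0 for all 3 Id2KO libraries, 44.7, 22.6 and 0.108 for Tcf1KO and 8.35, 6.61 and 0 for DKO. With a floor of 3 reads per library, 0.187 to 0.230 FPKM, the Ctrl mean was at least 116-fold higher than Id2KO. Mpo, encoding myeloperoxidase, was at 19.2, 16.4 and 1.49 for Ctrl, 0.108, 0.154 and 0.568 for Id2KO, 18.6, 11.8 and 1.17 for Tcf1KO and 5, 1.07 and 1.46 for DKO. Ctsg, the cathepsin G gene, ranged from 0 to 37.3 and Prtn3, the proteinase 3 gene, from 0 to 4.89. All 4 primary granule genes were lower in every Id2KO library than in every Ctrl library, as were 6.75% of all tested genes, and all 4 overlapped between DKO and Ctrl.

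The 2 granule stages separated Id2KO replicate 3 and Tcf1KO replicate 3 from the libraries around them. Summed over Elane, Mpo, Prtn3 and Ctsg, the primary granule FPKM was 0.724% of the secondary granule sum in Id2KO replicate 3, 0.630% in Tcf1KO replicate 3, 1.47% in DKO replicate 3 and 1.65% in Id2KO replicate 2. In the 3 Ctrl libraries it was 16.7%, 13.2% and 5.34%, and in Tcf1KO replicates 1 and 2 it was 10% and 9.90%. DKO replicates 1 and 2 had 29.4% and 34.6%, and Id2KO replicate 1 had 30.4% on a secondary sum of 2.54 FPKM. The secondary sum was a steadier fraction of S100a8 plus S100a9, at 18.4% to 45.9%. The ratio between the granule stages thus differed between libraries, and which cells the primary granule RNA came from was not tested.

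**Figure D3:**
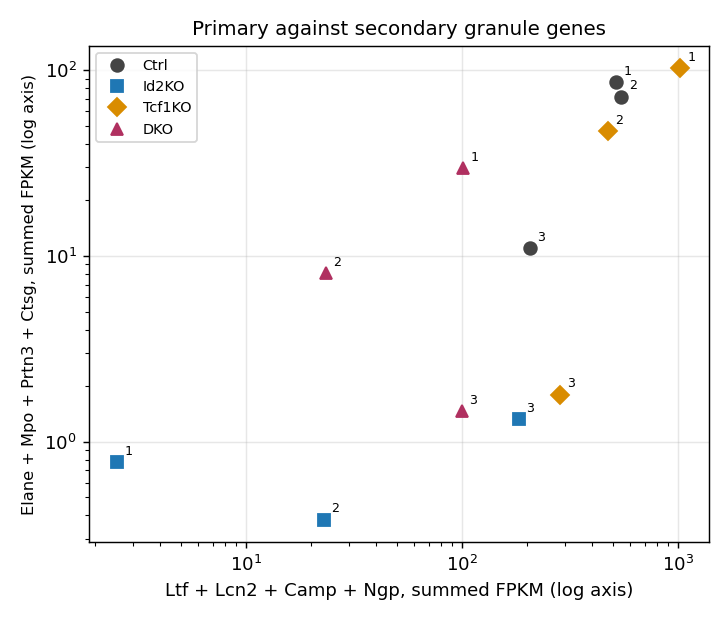
Summed FPKM of 4 primary granule genes against 4 secondary granule genes, both on log axes, 1 point per library with its replicate number. Replicate 3 of Id2KO, Tcf1KO and DKO lies low on the vertical axis, at 1.32, 1.79 and 1.46 FPKM, with secondary sums of 183, 284 and 99.3.

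Ly6g, the surface antigen by which neutrophils are usually sorted, had its own outlying library. It was at 7.90, 13.0 and 3.83 for Ctrl, 0, 0 and 8.04 for Id2KO, 24.1, 5.61 and 35.8 for Tcf1KO and 1.99, 0.754 and 1.25 for DKO. Tcf1KO replicate 3 held the highest Ly6g value, on 243 reads, although its S100a8 was 434. As a percentage of S100a8, Ly6g was 8.24% there and 0 to 2.43% elsewhere. None of the 76-base windows of Ly6g occurs in another gene's transcripts.

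Lyz2, the lysozyme gene that macrophages and monocytes also use, was at 390.3, 484 and 165 for Ctrl, 46.3, 56.5 and 286 for Id2KO, 654, 373 and 144 for Tcf1KO and 362, 147 and 80.3 for DKO. Relative to S100a8 it ran from 28.8% to 1033%, with its highest values in Id2KO replicate 1 (1033%), DKO replicate 1 (201%) and DKO replicate 2 (183%). Csf3r, the receptor for the neutrophil growth factor G-CSF, was at 3.65, 3.53 and 1.18 for Ctrl, 0.474, 0.278 and 1.17 for Id2KO, 5.99, 2.74 and 0.598 for Tcf1KO and 2.53, 0.360 and 0.552 for DKO. The Id2KO values lay below the Ctrl values, by the margin between 1.17 and 1.18. Cebpe, the transcription factor of secondary granule formation, was at 0.797, 0.809 and 0.248 for Ctrl, 0 for all 3 Id2KO libraries, 0.977, 1.26 and 0.0400 for Tcf1KO and 0.162, 0 and 0 for DKO. Cebpe reached an FPKM of 1 in 1 library only and was the single member that did not pass the filter for testing.

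Among erythroid genes, Hbb-bs (chr7:103826534-103828096), an adult beta globin gene, was the most abundant. Its FPKM was 345, 2174 and 301 for Ctrl, 37.8, 90.1 and 828 for Id2KO, 987, 1493 and 583 for Tcf1KO and 1139, 485 and 196 for DKO. The groups overlapped, since Id2KO replicate 3 exceeded 2 of the Ctrl libraries and DKO replicate 1 exceeded the same 2. Its neighbour Hbb-bt was at 312, 1439 and 257 for Ctrl, 37.3, 73.6 and 680.1 for Id2KO, 865, 1209.8 and 478 for Tcf1KO and 1006, 461 and 142 for DKO, 66.2% to 98.7% of Hbb-bs. The alpha globin gene Hba-a1 was at 50.1, 445 and 41.6 for Ctrl, 3.96, 10.7 and 129.5 for Id2KO, 134, 192 and 88.2 for Tcf1KO and 185, 85.0 and 31.3 for DKO. Hba-a2 was 63.1% to 105% of Hba-a1, and within each pair the split is uncertain for the reason given with the sequences.

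Among the non-globin erythroid genes, Alas2, the first enzyme of erythroid heme synthesis, was at 9.81, 28.9 and 5.90 for Ctrl, 1.41, 2.35 and 14.7 for Id2KO, 22.5, 36.6 and 13.1 for Tcf1KO and 27.4, 9.97 and 4.78 for DKO. It stood at 1.33% to 3.73% of Hbb-bs across all 12 libraries, whose Hbb-bs spanned 57.5-fold. Slc4a1, the red cell anion exchanger band 3, ranged from 2.43 to 137, and Ermap, an erythroid membrane protein, from 0.0477 to 8.42. Klf1, the erythroid transcription factor, was at 3.94, 10.9 and 2.04 for Ctrl, 0, 0.0459 and 3.90 for Id2KO, 11.2, 12.1 and 2.39 for Tcf1KO and 4.01, 0.908 and 0.411 for DKO. Epor, the erythropoietin receptor, was at 1.52, 15.4 and 0.302 for Ctrl, 0.577, 0 and 1.07 for Id2KO, 1.87, 9.12 and 0.0541 for Tcf1KO and 6.35, 2.18 and 0.882 for DKO. For both, Id2KO replicate 3 lay inside the Ctrl range.

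The 2 carbonic anhydrase genes parted from each other. Car1 was listed at 0 in Id2KO replicates 1 and 2 and at 1.96 in replicate 3, below the lowest Ctrl value of 2.95. It was the single one of the 11 erythroid members with no overlap between Id2KO and Ctrl. That share is near the 6.75% of all tested genes that were lower in every Id2KO than in every Ctrl library. Car2 was at 117, 204 and 80.9 for Ctrl, 80.6, 79.9 and 91.4 for Id2KO, 164, 193 and 62.4 for Tcf1KO and 114, 68.2 and 31.5 for DKO. Its range of 6.46-fold was the narrowest of the members above 0 in every library. In Id2KO replicate 1, Car2 stood at 213% of Hbb-bs, in replicate 2 at 88.7%, and in the other 10 libraries at 9.37% to 33.8%. Over the 12 libraries the median Pearson r of Car2 with the other erythroid members was 0.651, against 0.725 to 0.944 for each of the other 10. Car2 RNA was thus present at 79.9 FPKM or more in every Id2KO library, also in those where the globins were lowest.

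Among basophil and mast cell genes, the proteases Prss34 and Mcpt8 led. Prss34, encoding mast cell protease 11, was at 290.1, 160.1 and 54.9 for Ctrl, 3.30, 6.78 and 36.6 for Id2KO, 339, 107 and 18.6 for Tcf1KO and 207, 17.9 and 24.9 for DKO. Mcpt8 (chr14:56082166-56085273), a protease of basophils, was at 191, 125 and 54.7 for Ctrl, 3.04, 6.35 and 23.9 for Id2KO, 212, 90.2 and 14.2 for Tcf1KO and 179, 22.1 and 14.0 for DKO. Each Id2KO library lay below each Ctrl library for both, whereas Tcf1KO and DKO each overlapped Ctrl and reached below its lowest value. Cpa3, the carboxypeptidase A3 gene, was at 45.0, 44.0 and 18.5 for Ctrl, 3.92, 4.42 and 14.3 for Id2KO, 79.4, 33.7 and 2.79 for Tcf1KO and 43.4, 11.4 and 7 for DKO.

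Receptor and regulatory genes of this lineage followed the proteases. Fcer1a, the IgE-binding chain of the high-affinity IgE receptor, was at 57.2, 47.3 and 17.0 for Ctrl, 2.60, 1.31 and 4.82 for Id2KO, 50.6, 30 and 5.31 for Tcf1KO and 93.0, 24.4 and 3.55 for DKO. Gata2 was at 16.3, 14.2 and 7.26 for Ctrl, 0.883, 1.84 and 5.52 for Id2KO, 24.9, 9.44 and 4.17 for Tcf1KO and 26.4, 8.74 and 2.1 for DKO. For both genes the Id2KO libraries lay wholly below the Ctrl libraries, and DKO replicate 1 was the highest of all 12. Ms4a2, the receptor's beta chain, ranged from 0.289 to 26.6, Hdc, the enzyme that makes histamine, from 0.252 to 25.3, and Cd200r3, an activating receptor of basophils and mast cells, from 0.165 to 6.87. All 8 genes of the lineage were lower in every Id2KO than in every Ctrl library, among them Hdc with 4.8 in Id2KO replicate 3 against a lowest Ctrl value of 5.30. Of all tested genes, 6.75% were. The 8 genes moved together, with a median Pearson r of 0.902 over the 12 libraries, so they are not 8 separate observations.

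Id2KO was compared with Ctrl in a limma fit of log2(FPKM + 1) over all 12 libraries, which tested 12384 genes, 32 of the members among them, with Benjamini-Hochberg adjustment over all of them. The fitted difference was below 0 for all 32 members, from -4.33 to -0.56, yet limma called 0 of them at an adjusted p under 0.05, against 22 called genes among all tested (0.178%). An unadjusted p under 0.05 was reached by 18 members (56.2%, against 9.71% of all tested genes), and voom on the recovered reads also called 0. S100a8 differed by -3.78 ± 1.21 (SE; limma adjusted p = 0.31), Ngp by -4.16 ± 1.27 (adjusted p = 0.298), Hbb-bs by -2.09 ± 1.10 (adjusted p = 0.592) and Mcpt8 by -3.61 ± 1.11 (adjusted p = 0.298). None of these differences passed the threshold after adjustment over all tested genes. Their unadjusted limma p was 0.00971, 0.00755, 0.0840 and 0.00797 in the same order. Leaving out each library or changing the processing called none of the members either.

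By overlap, 17 of the 32 tested members were lower in every Id2KO library than in every Ctrl library (53.1%, against 6.75% of all tested genes), and so was Cebpe, which was not tested. They were the 4 primary granule genes, Ltf, Lcn2, Ngp and Csf3r, Car1, and all 8 basophil and mast cell genes. Members of a lineage move together across libraries, so the count is not 17 separate observations. Medians of the log2 difference were -3.16 over 13 neutrophil, -1.97 over 11 erythroid and -2.10 over 8 basophil and mast cell members, beside -0.0079 over all tested genes. Elane at its floor left the neutrophil median at -3.16. Without Id2KO replicate 3 the medians were -4.07, -3.07 and -2.62, and without Id2KO replicate 1 they were -2.18, -1.15 and -1.79. The erythroid median was -1.17 without Ctrl replicate 2.

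**Figure D4:**
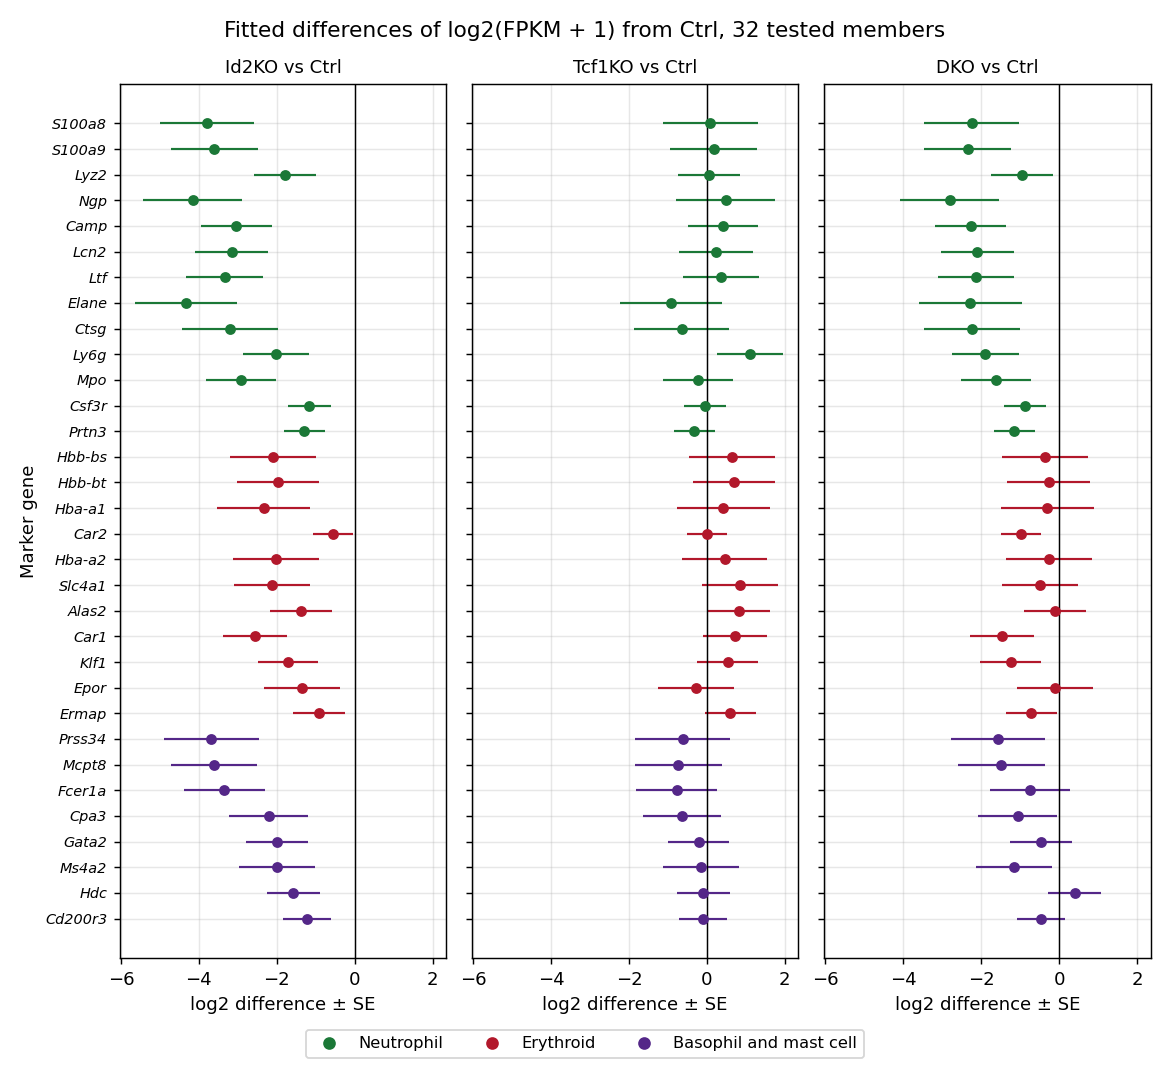
Fitted difference of log2(FPKM + 1) from Ctrl (points) with its standard error (bars) for the 32 tested members in Id2KO, Tcf1KO and DKO, coloured by lineage. In Id2KO all 32 points lie below 0, in Tcf1KO they lie on both sides, and in DKO 31 lie below 0; no member passed the adjusted threshold.

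Tcf1KO compared with Ctrl showed no member apart. limma called 0 members and 0 of all tested genes (0.0%), with 594 genes (4.8%) and 0 members at an unadjusted p under 0.05, and voom called 0 members. The fitted differences ran from -0.92 to 1.11, with 18 members above 0 and 14 below. No member was lower in every Tcf1KO than in every Ctrl library (5.73% of all tested genes were) and none was higher in every one (4.96% were). Median differences were 0.09 for the neutrophil, 0.61 for the erythroid and -0.42 for the basophil and mast cell members, beside -0.0016 over all tested genes. Ly6g had the highest value, 1.11 ± 0.85 (SE, limma adjusted p = 0.999), and 0.61 without Tcf1KO replicate 3. The neutrophil median was -0.40 without Ctrl replicate 3 or Tcf1KO replicate 1, and the basophil and mast cell median was 0.39 without Tcf1KO replicate 3 and -1.17 without Tcf1KO replicate 1. The erythroid median was 0.13 without Ctrl replicate 3 and 1.43 without Ctrl replicate 2.

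DKO compared with Ctrl also gave 0 called members in limma, against 18 called genes of all tested (0.145%), with 4 members at an unadjusted p under 0.05 (12.5%, near the 9.44% of all tested genes) and 0 called by voom. By overlap, 7 of the 32 tested members were lower in every DKO than in every Ctrl library (21.9%, against 7.27% of all tested genes). With the untested Cebpe, all 8 were neutrophil genes. The 7 were S100a8, S100a9, the secondary granule genes Ltf, Lcn2, Camp and Ngp, and Ly6g. The neutrophil genes Elane, Mpo, Prtn3, Ctsg, Lyz2 and Csf3r overlapped. Members of a lineage move together across libraries, so the count is not 7 separate observations. Ngp differed by -2.80 ± 1.27 (SE, limma adjusted p = 0.529), Camp by -2.26 ± 0.91 (adjusted p = 0.474) and Ly6g by -1.89 ± 0.85 (adjusted p = 0.529). The median was -2.14 over the 13 tested neutrophil members, -0.35 over the 11 erythroid and -0.90 over the 8 basophil and mast cell members, with -0.0090 over all tested genes. The erythroid median was 0.49 without Ctrl replicate 2, 0.29 without DKO replicate 3 and -0.98 without DKO replicate 1, and the basophil and mast cell median was -0.066 without DKO replicate 3 and -1.78 without DKO replicate 1.

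DKO and Tcf1KO, which by the labels differ in the Id2 allele, did not overlap for the same tested neutrophil genes. limma called 0 members and 7 of all tested genes (0.0565%), with 8 members at an unadjusted p under 0.05 (25%, against 6.73% of all tested genes) and 0 called by voom. S100a8, S100a9, Ltf, Lcn2, Camp, Ngp and Ly6g, 7 of the 32 tested members (21.9%, against 6.9% of all tested genes), were lower in every DKO than in every Tcf1KO library. Ly6g differed by -3.01 ± 0.85 (SE, limma adjusted p = 0.392), Ngp by -3.28 ± 1.27 (adjusted p = 0.643) and Car1 by -2.19 ± 0.82 (adjusted p = 0.621). Medians were -2.33, -0.99 and -0.39 for the neutrophil, erythroid and basophil and mast cell members, beside -0.0065 for all tested genes. The erythroid median was -0.39 without DKO replicate 3 and -1.62 without DKO replicate 1. The basophil and mast cell median was 0.15 and -1.08 without those libraries, 0.29 without Tcf1KO replicate 1 and -1.29 without Tcf1KO replicate 3. The comparisons of DKO with Ctrl and with Tcf1KO share the DKO libraries, so the matching members are not independent of each other.

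DKO and Id2KO, which by the labels differ in the Tcf7 allele, gave estimates mostly above 0. Their Id2 RNA differed too, at 18 ± 1.04 FPKM (SD, n = 3) in Id2KO against 42.3 ± 6.08 in DKO. The comparison is therefore not one of Tcf7 alone. limma called 0 members and 15 of all tested genes (0.121%), with 2 members at an unadjusted p under 0.05 (6.25%, below the 10.9% of all tested genes) and 0 called by voom. The 2 were Hdc and Fcer1a. Hdc differed by 1.98 ± 0.68 (SE, limma adjusted p = 0.309) and Fcer1a by 2.61 ± 1.03 (adjusted p = 0.389). Mpo was the single member higher in every DKO than in every Id2KO library (6.34% of all tested genes were), at 5, 1.07 and 1.46 against 0.108, 0.154 and 0.568. The medians were 1.06, 1.28 and 1.75 in the same order of lineages, with -0.0035 for all tested genes. The neutrophil median was 0.15 without Id2KO replicate 1 and 1.81 without Id2KO replicate 3. Without those libraries the erythroid median was 0.83 and 2.1, and the basophil and mast cell median was 1.29 and 2.31, with 0.89 without DKO replicate 1. Whether the Id2 effect differed with Tcf7 was tested as an interaction, the difference of DKO from Tcf1KO less that of Id2KO from Ctrl. Ctrl alone lacked Cre, and Id2 RNA was not equally low in Id2KO and DKO. The interaction therefore cannot be told apart from an effect of either. It called 0 members and 0 of all tested genes (0.0%) in limma and in voom, and 1 member, Fcer1a at 3.38 ± 1.46 (SE, limma adjusted p = 0.831), had an unadjusted p under 0.05 (3.12% of members, below the 5.94% of all tested genes).

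Markers of different lineages went up and down together across libraries. On log2(FPKM + 1) over the 12 libraries, S100a8 and Hbb-bs had a Pearson r of 0.825 (permutation p = 0.00226, adjusted over 5 pairs 0.00377) and a Spearman rho of 0.692 (permutation p = 0.0151, adjusted 0.0151). S100a8 and Mcpt8 had an r of 0.779 (permutation p = 0.00214, adjusted 0.00377) and a rho of 0.741 (permutation p = 0.008, adjusted 0.0133). Hbb-bs and Mcpt8 had an r of 0.768 (permutation p = 0.00344, adjusted 0.0043) and a rho of 0.699 (permutation p = 0.0144, adjusted 0.0151). All tests here were two-sided with 100000 resamples. These relations rest in part on the 2 most distant libraries: without the 2 farthest from the median of the first gene named, r was 0.561, 0.661 and 0.486. After each group's mean was subtracted, r was 0.760, 0.583 and 0.663, so libraries of the same group also varied together.

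**Figure D5:**
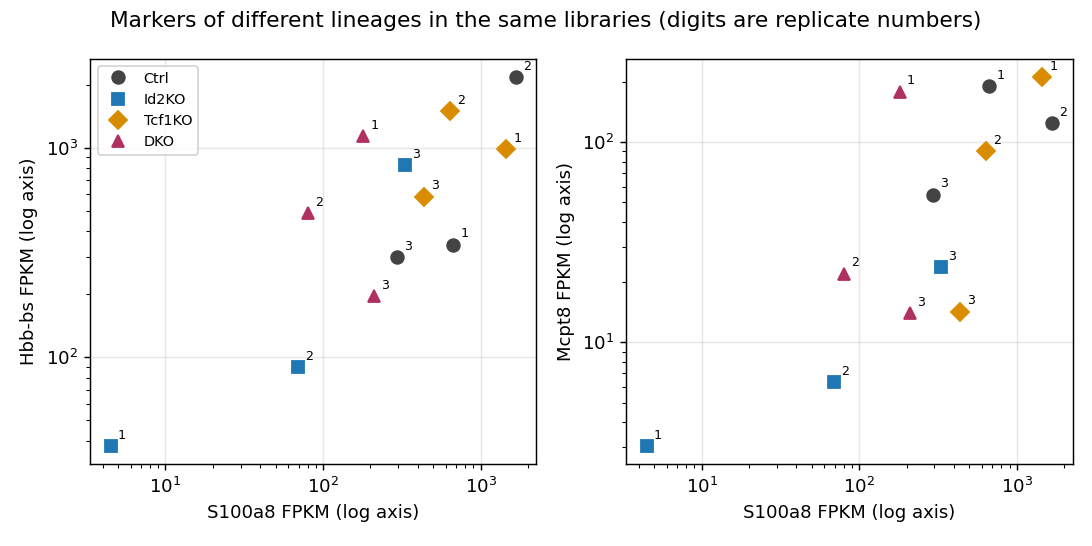
FPKM of Hbb-bs (left) and Mcpt8 (right) against S100a8, both on log axes, 1 point per library with its replicate number. Id2KO replicates 1 and 2 lie at the lower left of both panels, and DKO replicate 1 lies high for its S100a8 of 181, with Hbb-bs at 1139 and Mcpt8 at 179.

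Of the pairs tested within a lineage, the erythroid pair was tied more closely than the neutrophil pair. Hbb-bs and Alas2 had an r of 0.979 and a rho of 0.993, each with a permutation p of 2e-05, the smallest that the resamples can give, and adjusted values of 1e-04. Without the 2 farthest libraries r was 0.962, and on deviations from group means it was 0.974. S100a8 and Elane had an r of 0.643 (permutation p = 0.0142, adjusted 0.0142) and a rho of 0.744 (permutation p = 0.00778, adjusted 0.0133), with an r of 0.572 without the 2 farthest libraries and 0.246 on deviations from group means. Over all pairs of members, given as descriptions from the same 12 libraries, the median r was 0.805 within the neutrophil, 0.862 within the erythroid and 0.902 within the basophil and mast cell genes. Between lineages it was 0.749 for neutrophil with erythroid, 0.707 for neutrophil with basophil and mast cell, and 0.714 for erythroid with basophil and mast cell genes. The primary granule genes divided in this respect: the median r with the basophil and mast cell members against that with the other neutrophil members was 0.881 against 0.673 for Elane and 0.899 against 0.705 for Ctsg, about equal at 0.830 against 0.822 for Mpo, and in the opposite order at 0.650 against 0.726 for Prtn3. Csf3r, at 0.865 against 0.803, and Lyz2, at 0.906 against 0.834, were nearer the basophil and mast cell members, and the other 8 neutrophil members, S100a8 with 0.655 against 0.814 among them, were nearer their own.

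Genes outside the members that varied most like 1 of 3 lead markers were listed by Pearson r over the 12 libraries among 1334 tested genes with a log2 range of 2 or more. S100a8 was followed by Chil3 (0.938), Ifitm6, Wfdc21, H2-Aa and Cd24a (0.898). For Hbb-bs the list held Slc25a37, the mitochondrial iron importer mitoferrin (0.971), and Cd24a (0.957). Mcpt8 was followed by Alox5ap, which activates leukotriene synthesis (0.966), Rab44, Ccl9 and Igsf6 (0.928). Cd24a stood on the first 2 lists, at 4.38 to 339.9 FPKM.

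Further marker lists of the same lineages were followed as well, and their part in the results was not tested. The summed FPKM of 21 more erythroid genes, among them Slc25a37, ran from 37.2 in Id2KO replicate 1 to 516 in Tcf1KO replicate 2. That of 22 more neutrophil genes, led by Pglyrp1 and Retnlg, ran from 111 to 579.5, and 76.9 to 158 of it was Pglyrp1, which was 108 ± 21.7 (SD, n = 3) in Id2KO and 125 ± 29.9 in Ctrl. Of 15 more basophil and mast cell genes, Fcer1g, a signalling chain that NK cells also use, made up most of the sum at 561 to 909, and the other 14, led by Cyp11a1, summed to between 10.2 in Id2KO replicate 1 and 71.7 in Tcf1KO replicate 1. Mast cell tryptase genes Tpsab1 and Tpsb2 and the protease Mcpt4 had medians under 1 FPKM.

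Other hematopoietic cells were represented too. The sum over 12 monocyte and macrophage genes, led by the complement gene C1qb and the adhesion molecule Vcam1, was 143 to 407 for Ctrl, 87.5 to 304 for Id2KO, 149.7 to 576 for Tcf1KO and 36.2 to 625 for DKO. Its highest value was in DKO replicate 1 and its lowest in DKO replicate 3. At 164 in Id2KO replicate 1, the lowest library for the member sums, it exceeded the 143 of Ctrl replicate 3. Within Ctrl, Tcf1KO and DKO, however, its libraries fell in the same order as for the erythroid sum. It therefore departed from the order of the members only in part. For 8 megakaryocyte and platelet genes, led by the chemokine genes Pf4 and Ppbp, the sum was 15.8 to 292 in Ctrl and 1.21 to 30.2 for Id2KO, with Ctrl replicate 2 highest. The 9 eosinophil genes, led by Ear2 and Prg2, summed to 8.52 to 96.2 in Ctrl and 6.59 to 22.1 in Id2KO. B cell genes, led by Cd79b and Cd79a, were near 0, with sums of 1.75 to 12.6 over 10 genes and 8 of the 10, Ms4a1 among them, at a median under 1 FPKM. limma called none of the genes of these lists in any comparison between groups, in lists with 2 to 20 tested genes, and none of the 12 NK identity genes, whose lowest adjusted p was 0.0567 for Ncr1 in DKO against Ctrl.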

How the data were processed

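The deposited table holds FPKM per gene for 12 libraries, made by the authors from 76-cycle reads. Tools listed in the submitters' processing notes are edgeR, HTSeq 0.6.1, TopHat2 2.1.0 and Trimmomatic 0.33, with the build mm10. Symbols came from GENCODE M21 for 32938 of 37991 gene IDs. A gene entered the tests if 3 libraries or more reached an FPKM of 1, and was compared on log2(FPKM + 1) with limma 3.58.1 in R 4.3.3 (group as the only term, variance trend, two-sided, Benjamini-Hochberg over 12384 genes, threshold 0.05). A pseudocount of 1 understates differences of low genes. Whole reads, within 0.001 reads, were recovered from the FPKM steps for all 23707 genes above 0, and voom on them was added after seeing the data. Replicate numbers were not taken as pairs, since the labels do not pair them and deviations of same-numbered libraries did not correlate above 0.1 in every pair. That criterion does not test whether libraries of the same number shared their handling.

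The members and marker lists were chosen with earlier results of these data known. Each member is named; values in every library are given for the 4 with the highest mean FPKM in each lineage and for Cebpe, Klf1, Gata2, Csf3r, Epor and Fcer1a. From each other list the 2 genes with the highest mean are named, and for S100a8, Hbb-bs and Mcpt8 the 5 genes of most similar pattern, predicted genes aside. Some genes these rules select are not reported here. Library values of Elane, Mpo, Ly6g and Alas2, and the genes named from lists for low levels, were chosen after their values were seen. The procedure was tested on simulated data. Python 3.11.15, pandas 2.3.3, scipy 1.17.1 and matplotlib 3.10.9 were used.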

Additional observations from a re-analysis of the deposited data

How the results depend on the processing

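The count of called members was 0 in all 107 combinations of a comparison with an alternative. The alternatives were a pseudocount of 0.1, no filter, median scaling and only the compared groups. The replicate block, leaving out each library, and voom on recovered reads were run as well. Leaving out a library outside the comparison, fitting only the compared groups and the replicate block cannot move a lineage median. With these included, the medians of the 3 lineages moved by less than 1 within-group SD (1.09 to 1.24 on the log2 scale) in all 270 combinations of a median with an alternative. Over these, 4 medians took both signs: -0.40 to 0.65 for neutrophil and -1.17 to 0.39 for basophil and mast cell members in Tcf1KO against Ctrl, -0.98 to 0.49 for erythroid members in DKO against Ctrl, and -1.29 to 0.29 for basophil and mast cell members in DKO against Tcf1KO. No gene's printed difference changed sign. The number of all genes called was less steady: leaving out 1 library gave 13 to 27 in Id2KO against Ctrl (22 in the fit reported), 0 to 3 in Tcf1KO against Ctrl (0), 1 to 27 in DKO against Ctrl (18), 2 to 31 in DKO against Id2KO (15) and 0 to 7 in DKO against Tcf1KO (7). With only the compared groups the counts were 2, 1, 1, 0 and 1 in that order. Without the filter they were 20, 1, 4, 15 and 4, with a pseudocount of 0.1 they were 15, 0, 12, 13 and 4, and with voom 33, 2, 13, 11 and 2. The replicate block called 0 members and 22, 0, 19, 15 and 15 genes in all; deviations of same-numbered libraries correlated at -0.0046 to 0.27 among Ctrl, Tcf1KO and DKO and at -0.14 to 0.031 with Id2KO, and no 2 groups had all 3 pairs above 0.1. Members such as Cebpe and Prtn3 rest on few reads, and differences between libraries that lack reads for them were not detectable at this depth.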
